A study of Drosophila melanogaster with 9 samples.

Results

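The genes eyes shut (eys), prominin (prom) and chaoptin (chp), whose products line the light-sensing face of the fly photoreceptor, were followed in retinas dissected with the optic lobes from pupae of Drosophila melanogaster. They were taken by gene symbol from the 4 deposited tables, where they are 3 of 904 distinct genes. Of the 3, eys and prom stood in the table of genes lower after Blimp-1 overexpression and chp in the table of genes lower after Blimp-1 RNAi. No member stood in both comparisons, and none was in a table of higher genes. The tables hold only genes that passed the authors' thresholds, so the level of chp in overexpression and the levels of eys and prom in RNAi remain unknown.

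All 9 samples were white prepupae aged for 48 h at 25 °C, and each group had 3 biological replicates. Control pupae were lGMR GAL4/+ and carried the driver with no UAS insert named. The other genotypes were lGMR GAL4>Blimp-1 RNAi and lGMR GAL4>UAS Blimp-1, called RNAi and overexpression below. The 3 groups thus share the driver, and lGMR is a long form of the Glass multimer reporter, which is active in the developing eye. Retina and optic lobe were dissected together, other brain tissue was removed, and RNA was measured in bulk, so fewer cells of a type and less RNA per cell cannot be told apart. The labels give no sex, number of animals per sample or identity of the RNAi line.

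A Drosophila photoreceptor carries its rhodopsin in the rhabdomere, a stack of tightly packed microvilli on its apical face. Chaoptin is a cell surface glycoprotein with leucine-rich repeats, anchored by a lipid tail, that holds microvilli together by binding to itself. Eyes shut is a secreted protein with EGF-like and laminin G domains that fills the interrhabdomeral space, the lumen between the rhabdomeres of an ommatidium. Prominin is a membrane protein of the microvilli that binds Eyes shut, and both are needed to keep neighbouring rhabdomeres apart, against the adhesion that chaoptin provides. The human relatives of eys and prom, EYS and PROM1, are genes of inherited retinal degeneration.

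The 3 genes differ in size and place in the genome. On dm6, eys (FBgn0031414) lies on chromosome 2L from 2311680 to 2358944 on the plus strand, prom (FBgn0259210) on 2R from 24415410 to 24428387 on the minus strand, and chp (FBgn0267435) on 3R from 31204180 to 31210730 on the minus strand. The eys locus is mostly intron, with 8481 exonic bases, or 17.9% of its span, in 14 exon blocks from 2 annotated transcripts. The prom locus has 4379 exonic bases in 19 blocks from 4 transcripts, and chp has 4872 in 15 blocks from 5 transcripts, or 74.4% of its span. CG9967 overlaps eys on the opposite strand and shares 67 exonic bases with it. CG42383 is nested in prom on the same strand with 0 shared exonic bases. Neither was in a deposited table, and no other annotated protein-coding gene overlaps a member. The libraries were stranded, but the sources used here do not say whether counting used strand.

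Blimp-1 itself, the zinc finger repressor gene that the transgenes target, rose in every overexpression library. Its normalized counts were 874.0, 887.7 and 748.5 in control replicates 1 to 3 and 23252, 9467 and 18277 in overexpression replicates 1 to 3. The lowest overexpression value, in replicate 2, was still far above all control values. No table gives Blimp-1 in RNAi, so its transcript did not pass the authors' thresholds there or was not tested. No fall of Blimp-1 transcripts is thus recorded in RNAi, and the extent of the knockdown is unknown. Recovered reads came to 1189615 to 2306340 per control library over 904 listed genes, 954516 to 1318419 per RNAi library over 373 and 1322202 to 1918155 per overexpression library over 710. These sums cover different genes and are not library sizes, and the total depth is unknown.

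Transcripts of eys, the matrix component, fell in overexpression. Control replicates 1 to 3 held 6415, 3800 and 4267 normalized read counts, and overexpression replicates 1 to 3 held 1817, 710.6 and 1736. The groups did not overlap, with the lowest control library 2.09 times as high as the highest overexpression library. The same absence of overlap held for all 184 lower genes averaging 20 or more normalized counts. Control replicate 1 was the highest of its group and overexpression replicate 2 the lowest of its group. The means were 4828 ± 1394 and 1421 ± 617 (SD, n = 3), so that 29.4% of the control level was left, a 3.40-fold fall. On the log2(normalized count + 1) scale the change was -1.84 with an SE of 0.41 (limma, Benjamini-Hochberg adjusted p = 0.00223 over 710 listed genes), and the authors' deposited table gives an adjusted p of 2.67e-05.

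Transcripts of prom, the membrane partner, fell as well. Control replicates 1 to 3 held 3871, 2461 and 2679 normalized counts, and overexpression replicates 1 to 3 held 1491, 654.5 and 1167. Here too the groups did not overlap, as for 100% of those 184 genes, control replicate 1 was highest and overexpression replicate 2 lowest. The means were 3004 ± 759 and 1104 ± 422 (SD, n = 3), a 2.72-fold fall to 36.8% of control. The log2 change was -1.49 with an SE of 0.35 (limma, adjusted p = 0.0031), and the authors' deposited table gives an adjusted p of 0.000194.

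All 710 genes of the overexpression tables passed limma's adjusted threshold of 0.05, since the authors had selected them, with 27.6% called lower and 72.4% called higher. That both listed members were lower is read against this 27.6%. A two-sided exact permutation test of 3 against 3 libraries cannot give less than p = 0.1, and gave p = 0.1 for eys and for prom. When libraries were rescaled on the listed genes alone by TMM, the median of all listed genes shifted by -1.52 on the log2 scale and 48.5% of calls were lower. The changes of eys and prom then became -3.26 and -2.95, so their size depends on the scale. Of the listed genes 72.4% were called higher, so this scaling moves every gene down. It could not have turned a fall, and the kept direction tells nothing.

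**Figure D1:**
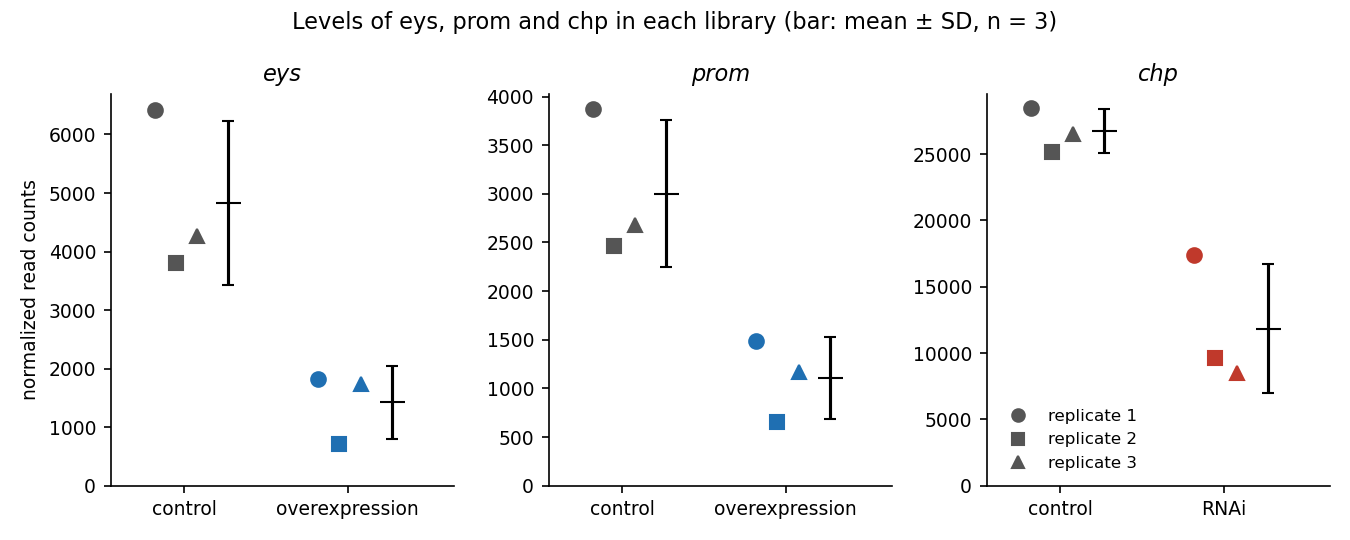
Normalized read counts (vertical axis, from 0) of eys, prom and chp in each library, with replicates by symbol, and mean ± SD (n = 3) beside each group. In each panel the altered libraries all lie below the control libraries, and replicate 1 is the highest library of every group shown.

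The falls of eys and prom ran in parallel across libraries but were not equal. The ratio of eys to prom normalized counts was 1.66, 1.54 and 1.59 in control replicates 1 to 3, although eys itself ranged from 3800 to 6415 there. It was 1.22, 1.09 and 1.49 in overexpression replicates 1 to 3. The ratio was thus nearly constant in control, lower in each overexpression library, and spread more widely there. Group means were 1.60 ± 0.06 and 1.26 ± 0.20 (SD, n = 3), a log2 difference of -0.35 with an SE of 0.14. The exact permutation test gave p = 0.1, the smallest the design allows, so a larger fall of eys than of prom was not shown at 0.05. The ratio was chosen after the values were seen, and leaving out each library in turn moved its log2 difference between -0.47 and -0.25.

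**Figure D2:**
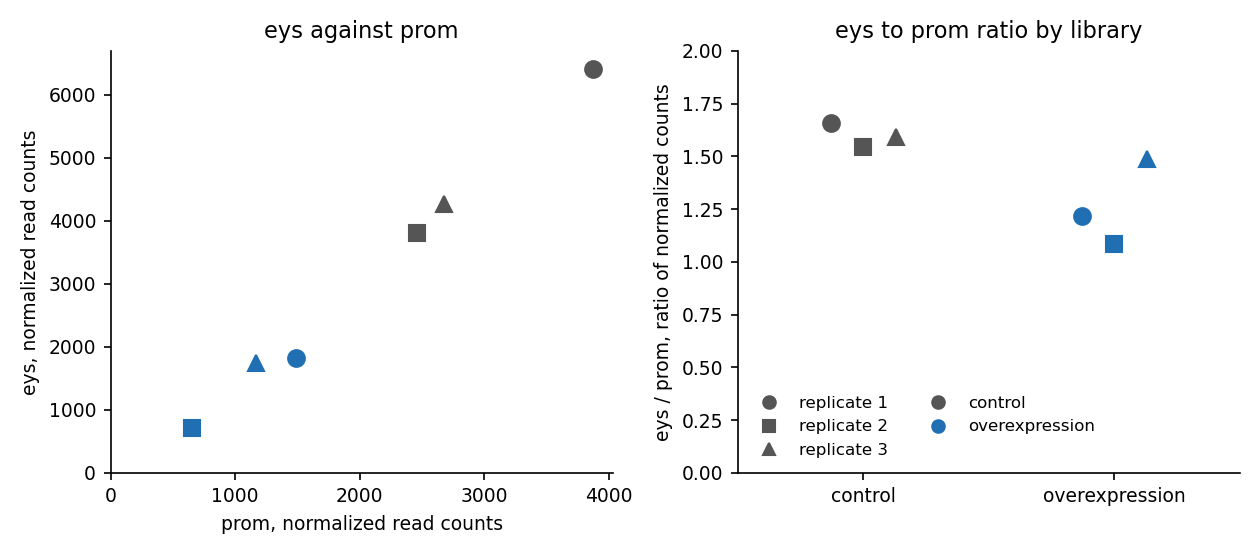
Left, eys against prom in normalized read counts for the 3 control and 3 overexpression libraries. Right, the ratio of the 2 counts in each library; control libraries lie between 1.54 and 1.66 and overexpression libraries between 1.09 and 1.49.

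The values of eys and prom varied widely between libraries of a group. Recovered reads for eys were 9549, 3960 and 3421 in control and 1995, 557 and 1700 in overexpression, so that counting alone gives a coefficient of variation (CV) of 1.02% to 4.24%. The CV between replicates was 28.9% in control and 43.4% in overexpression for eys, and 25.3% and 38.2% for prom. Both members were more variable than most lower genes, whose median CV was 17.1% in control and 30.4% in overexpression (the 184 lower genes above). In overexpression eys ranked 40th and prom 58th by CV among these 184.

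Overexpression replicate 2, where both members and Blimp-1 were lowest, was also the lowest library in 109 of the 184 lower genes (59.2%). Over these genes its median level was 73.4% of the mean of the other overexpression libraries, against 40.0% for eys and 49.2% for prom. Among the 492 higher genes averaging 20 or more normalized counts, it was instead the highest in 290 (58.9%). Over all 676 such genes it was the lowest in 33.7%. Control replicate 1 was the highest control library in 118 of the 184 (64.1%), and in 35.8% of all 676. Without overexpression replicate 2 the falls were 2.72-fold for eys and 2.26-fold for prom. Without control replicate 1 they were 2.84-fold and 2.33-fold.

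Transcripts of chp, the adhesion protein of the microvilli, fell in RNAi. Control replicates 1 to 3 held 28494, 25179 and 26533 normalized counts, and RNAi replicates 1 to 3 held 17427, 9602 and 8467. Every RNAi library was below every control library, as for all 181 lower genes averaging 20 or more normalized counts. RNAi replicate 1 stood apart from the other two RNAi libraries. The means were 26735 ± 1667 and 11832 ± 4879 (SD, n = 3), a 2.26-fold fall to 44.3% of control. The log2 change was -1.25 with an SE of 0.29 (limma, adjusted p = 0.00171 over 373 listed genes), and the authors' deposited table gives an adjusted p of 5.62e-05. The exact permutation test gave its smallest possible value, p = 0.1.

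All 373 genes of the RNAi tables likewise passed limma's threshold, with 50.7% lower and 49.3% higher, and the fall of chp is read against that 50.7%. By the size of the authors' fold change, chp was 168th of 189 lower genes, close to the minimum of 1 on the log2 scale that the tables require, at -1.10 in the authors' deposited table. By control level it was 6th among all 373 listed genes. The change was thus small for a listed gene but fell on an abundant transcript, with 7911 to 18744 recovered reads in the RNAi libraries and 21270 to 42415 in control.

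The control libraries agreed closely on chp, and the RNAi libraries did not. The CV was 6.23% in control, 161st of these 181 lower genes, and 41.2% in RNAi, where chp was 12th. RNAi replicate 1 held 192.9% of the mean of the other RNAi libraries for chp, while its median over these 181 genes was 101.2%. It was the highest RNAi library in 62 of the 181 (34.3%). Without RNAi replicate 1 the fall of chp was 2.96-fold, and without RNAi replicate 3 it was 1.98-fold. Since Blimp-1 was not listed for RNAi, the knockdown in each library cannot be set beside these values.

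**Figure D3:**
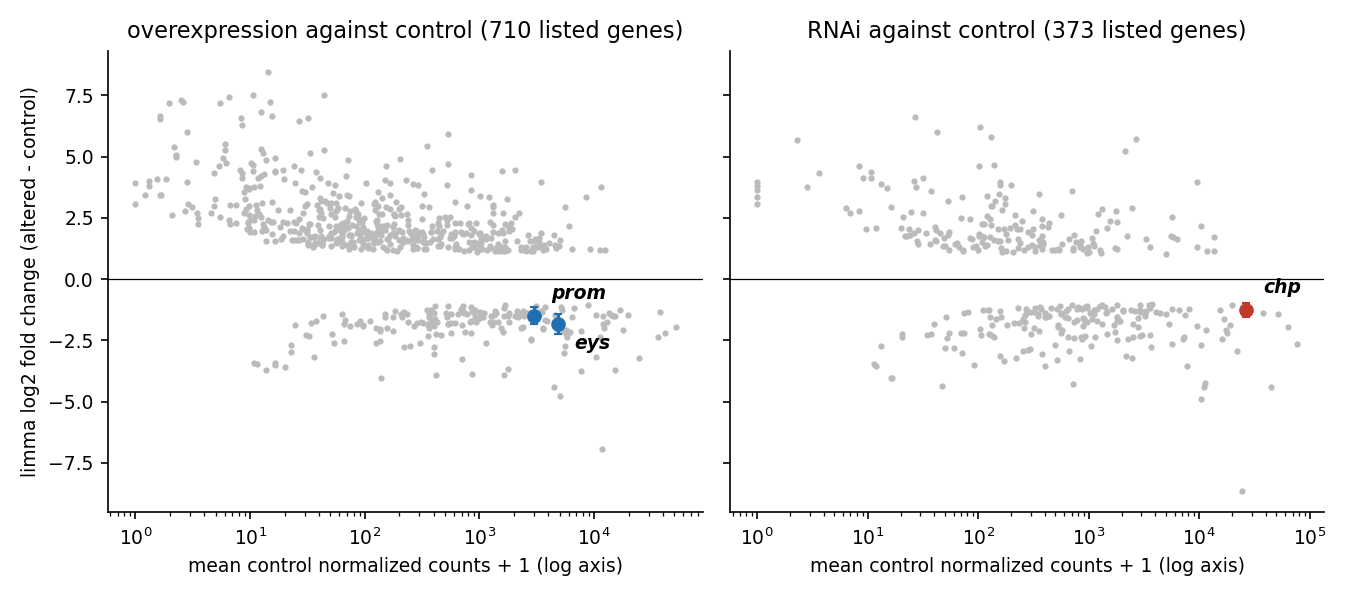
Change on the log2 scale (limma, altered minus control) against mean control level (normalized counts + 1, log axis) for all listed genes of each comparison in grey, with eys and prom (blue) and chp (red) marked with their SE. The empty band around 0 comes from the authors' selection; chp lies at the right edge of the RNAi panel with a change of -1.25.

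Per kilobase of exon, control levels were 5488 ± 342 normalized counts for chp, 686 ± 173 for prom and 569 ± 164 for eys (SD, n = 3). The level of chp was well above the other two. Within a library, prom per kilobase was above eys in each of the 3 control libraries, by 1.17-, 1.25- and 1.22-fold. The group means differed by less than the spread of either gene between libraries. Both genes were counted in the same libraries, however, and their ratio varied little there. In the altered genotypes the levels per kilobase were 2429 ± 1001 for chp in RNAi, 252 ± 96 for prom and 168 ± 73 for eys in overexpression (SD, n = 3). Even the lowered chp level was above the control levels of eys and prom. Among listed genes with a known length, chp ranked 24th of 369 in RNAi by control level per kilobase, and prom and eys 128th and 142nd of 670 in overexpression, where the median was 88.6.

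Certain listed genes followed the members library by library. Likeness was the root mean square difference of log2(normalized count + 1), each gene centred on its own control mean, over the 6 libraries of a comparison. For eys the nearest of 675 genes were CG33143 (0.12), Rim (0.15), Hr4 (0.17), sog (0.18) and Ca-alpha1T (0.18), against a median of 0.53 over lower genes. Rim encodes a protein of the presynaptic active zone, Ca-alpha1T a voltage-gated calcium channel, sog a secreted BMP antagonist and Hr4 an ecdysone-regulated nuclear receptor. Rim held 1231, 576.8 and 688.6 normalized counts in control replicates 1 to 3 and 338.9, 112.3 and 338.0 in overexpression replicates 1 to 3, the same order of libraries within each group as eys. Of the 9 optic lobe neuron markers in the list used here, Rim was the only one listed, and its part in the likeness was not tested.

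For prom the nearest genes were sona (0.09), sano (0.13), CG8192 (0.14), jus (0.14) and CG9095 (0.15), against a median of 0.47 over lower genes. The secreted metalloprotease gene sona held 1847, 1150 and 1208 normalized counts in control replicates 1 to 3 and 724.2, 343.2 and 579.0 in overexpression replicates 1 to 3, a 2.55-fold fall. It shares with prom the high control replicate 1 and the low overexpression replicate 2. The likeness of eys and prom to each other was 0.28. This placed prom 17th among the genes nearest to eys and eys 33rd among those nearest to prom.

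For chp the nearest of 358 genes in RNAi were CG15005 (0.12), CG7080 (0.16), Est-6 (0.19), CG11089 (0.19) and CG8172 (0.19), against a median of 0.57 over lower genes. CG15005, annotated as secreted in the authors' deposited table, held 525.4, 458.7 and 558.9 normalized counts in control and 322.6, 171.1 and 186.2 in RNAi replicates 1 to 3. It had the same high RNAi replicate 1 as chp, at a much lower level. In CG7080, Est-6, CG11089 and CG8172 too, RNAi replicate 1 was the highest RNAi library. Est-6 encodes a carboxylesterase. These likenesses rest on 6 libraries that fall into 2 groups, and are a description.

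**Figure D4:**
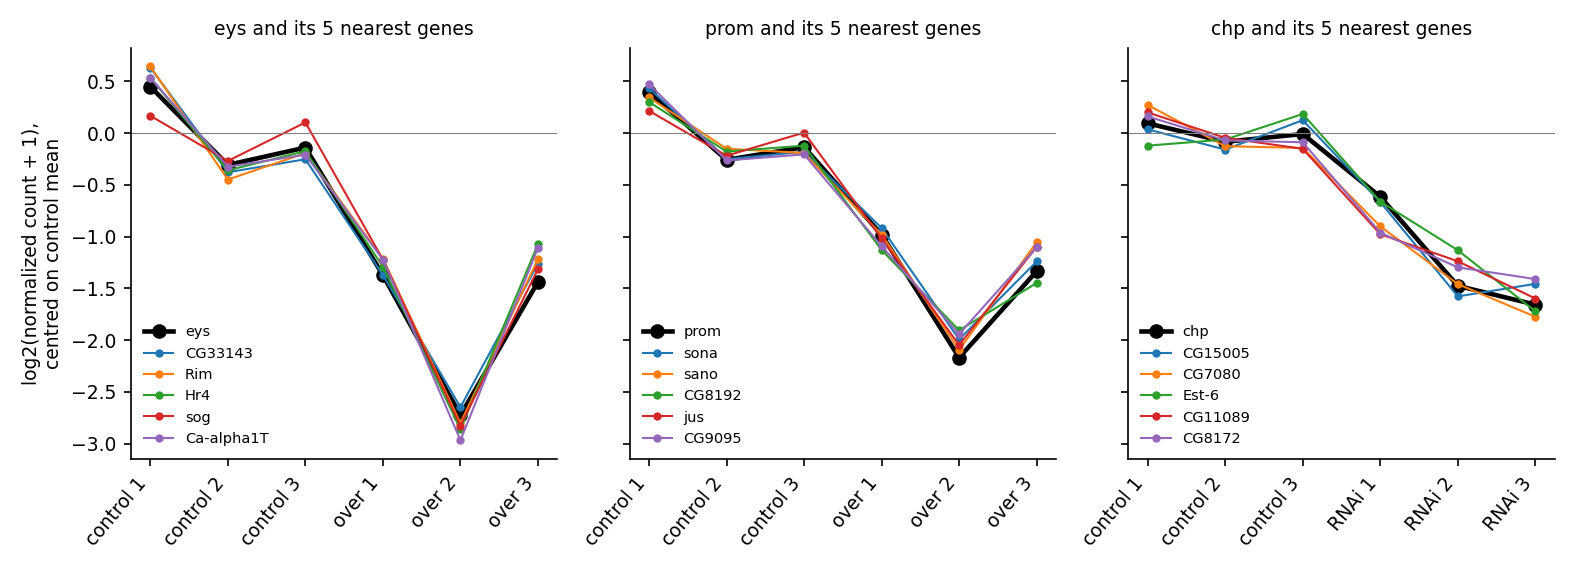
Values of eys, prom and chp (black) and of the 5 listed genes nearest to each, as log2(normalized count + 1) centred on the control mean, in the 3 control and 3 altered libraries of the comparison; lines join libraries only to guide the eye. The genes near eys and prom share a high control replicate 1 and a low overexpression replicate 2. In chp and its 5 nearest genes, RNAi replicate 1 is the highest RNAi library.

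By the annotation in the authors' deposited table, eys was secreted, prom a surface protein and chp a cell surface protein. For peak expression, eys and prom were both entered at the 3 d pupa, later than the age of the samples, and the cell of chp was blank, as for 103 of the 189 lower genes in RNAi. Of the 97 genes entered at 3 d pupa in overexpression 25 were lower and 72 higher, so that 25.8% were lower against 27.6% of all listed genes. Among the 25, eys was 12th and prom 17th by size of the limma log2 change, and 4th and 7th by control level. The other lower genes of that class included the cuticle protein gene Cpr49Ae (14.8-fold lower), the calcium release channel gene RyR (3.06-fold) and sona. The RNAi tables also mark genes with Blimp-1 or Slbo sites, and chp had neither mark, while 41.3% and 31.2% of the 189 lower genes and 42.4% and 34.3% of all 373 listed genes had one. The sources used here do not say how sites and stages were assigned, and the overexpression tables give no site marks for eys and prom.

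Entries for other genes that build the rhabdomere and its surface were as follows, where 6.08% of the 13986 annotated protein-coding genes were listed in either comparison. None of 14 apical polarity genes, such as crb and sdt of the crumbs complex, had an entry in either comparison. Of 29 annotated cytoskeletal genes of the rhabdomere only mbt, a p21-activated kinase gene, was listed, 2.45-fold higher in overexpression at 7453 ± 548 against 3045 ± 87 normalized counts (SD, n = 3). Of 15 annotated genes for delivery to the rhabdomere only the rhodopsin chaperone gene ninaA was listed, 30.1-fold higher in overexpression. An unlisted gene did not pass the authors' thresholds or was not tested, and its level is unknown.

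The list of rhodopsin and phototransduction genes, most of which act inside the rhabdomere, had entries in the overexpression tables alone. It does not cover the genes of the chromophore. In overexpression 10 of its 29 genes were listed, where 4.73% of all annotated protein-coding genes were. Of the 10, 9 were higher and 1 lower, where 72.4% of all listed genes were higher. The 9 include retinin, which was put in the list but is not a phototransduction gene. The median log2 change of the 10 was 2.25, beside 1.68 over all listed genes of that comparison. The arrestin genes Arr1 and Arr2, the corneal lens protein gene retinin and the channel gene trpl were 289.4-, 15.8-, 80.3- and 29.4-fold higher. The opsin gene Rh5, the lipid phosphatase gene laza, rtp and the G protein subunit gene Gbeta76C were 6.19-, 4.60-, 4.26- and 3.56-fold higher. The Rh5 change is between 2.5 and 15.5 mean normalized counts. The lower gene was inaD, for the scaffold of the light-response proteins, named here after its values were seen. It held 2449, 1908 and 1821 normalized counts in control replicates 1 to 3 and 910.0, 611.1 and 683.1 in overexpression replicates 1 to 3, a 2.80-fold fall (limma, adjusted p = 0.000626).

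The few listed genes in the lists drawn up for domains like those of the members were lower. The higher genes named here came from outside those lists. In the list of 20 leucine-rich repeat surface genes, 1 was listed, kek3, 2.40-fold lower in overexpression. The list does not cover the whole class of chp. Of genes outside it, named after their values were seen, the leucine-rich repeat genes atk and wdp were higher in both comparisons, atk 4.61-fold in RNAi and 2.98-fold with overexpression, and wdp 2.40-fold and 5.93-fold. In the list of 20 genes drawn up for EGF or laminin G domains, like those of eys, trol, which encodes perlecan, was 2.07-fold lower in RNAi. The list also held ds, 2.37-fold lower in overexpression. That gene encodes an atypical cadherin and is not taken here as a domain relative of eys. Of 17 photoreceptor adhesion genes, Cad86C was 3.75-fold lower in overexpression, and Cad96Ca was 5.07-fold lower in RNAi and 2.23-fold higher in overexpression. Of 18 photoreceptor transcription factor genes only salm was listed, 2.52-fold lower in overexpression. All of these changes passed limma's adjusted threshold, as did every listed gene.

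**Figure D5:**
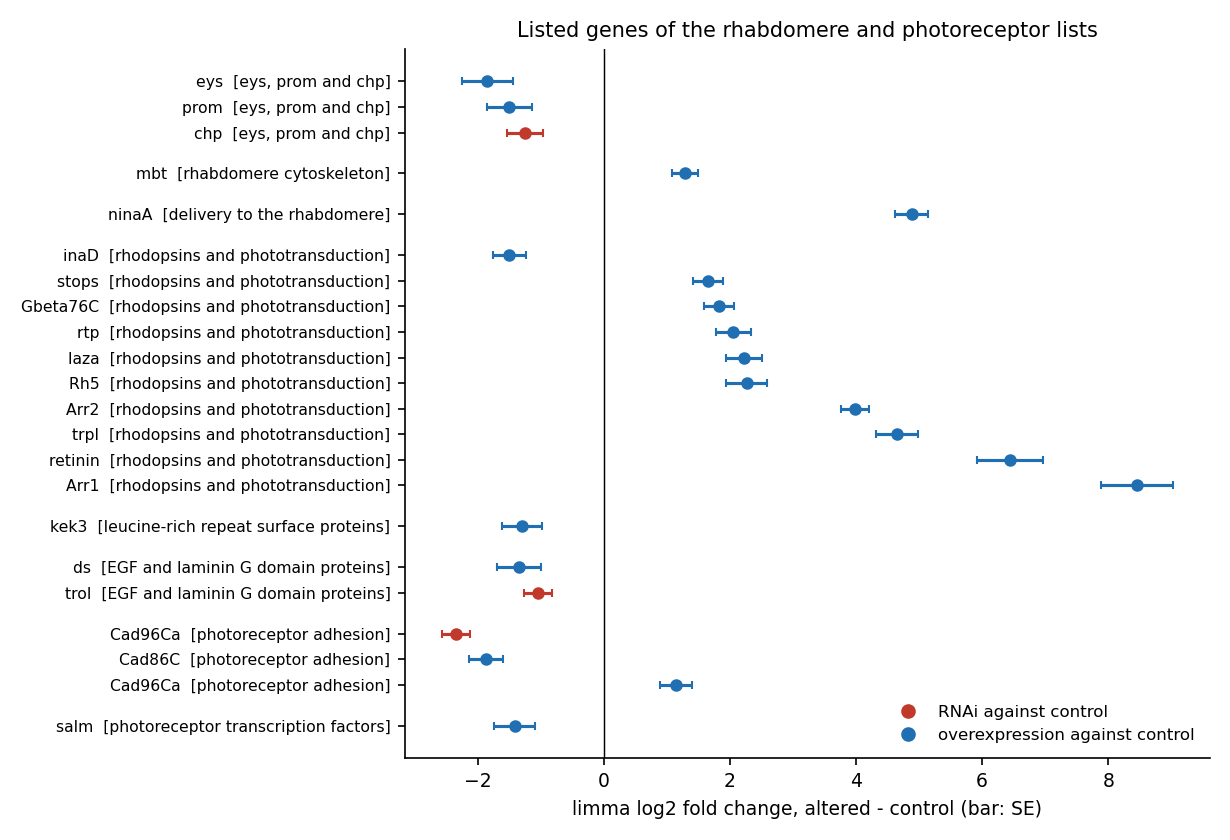
Limma log2 change (altered minus control, bar SE) of eys, prom and chp and of every listed gene of the 8 rhabdomere and photoreceptor lists, in RNAi (red) and overexpression (blue). The members lie between -1.84 and -1.25, as does inaD at -1.49, while ninaA and 9 genes of the rhodopsin and phototransduction list, retinin among them, lie above 0.

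Markers of the cells in the sample gave the following beside the members. Of all annotated protein-coding genes 4.73% were listed in overexpression and 2.56% in RNAi. Among listed genes 72.4% were higher in overexpression and 50.7% lower in RNAi. The sums below hold only markers that passed the authors' thresholds, so they do not measure the amount of a cell type. Of 10 photoreceptor markers other than chp, 4 were listed in overexpression of which Arr1, Arr2 and trpl were higher and inaD lower. Their summed level, mostly Arr2, ranged from 5423 to 5653 normalized counts in control and from 52492 to 65075 in overexpression. No photoreceptor marker other than chp was listed in RNAi, so chp was the single photoreceptor marker with a recorded change there. In overexpression 2 of 6 glial markers summed to 4684 to 5102 in control and 10653 to 13600 in overexpression, and 4 of 7 hemocyte markers to 224 to 317 and 937 to 1528. Tsf1, 1 of 4 fat body markers, ranged from 10820 to 11757 and from 21627 to 29576, and Zasp66, 1 of 4 muscle markers, was at 3.36 to 17.3 and 68.9 to 143. Of 7 cone and pigment cell markers w, also a common marker of transgenes, was at 2838 to 3744 in control and 9124 to 13056 in overexpression. In RNAi the pigment marker st fell from 6807 to 7351 in control to 951 to 1745, and sls, 1 of 4 muscle markers, from 1744 to 2204 to 454 to 787. Unlisted markers have no value here, and the part of other cell types in the falls of the members was not tested.

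The genomic neighbourhoods of eys and prom held no other listed gene. Within 50 kb, 0 of 22 protein-coding genes around eys and 0 of 16 around prom were listed in either comparison. Around chp, 2 of 18 were listed. Over all annotated protein-coding genes 6.08% were listed in either comparison, and counts this small do not set the 3 loci apart. The nearer, qless, a gene for a prenyltransferase of coenzyme Q synthesis 25.3 kb away, was 3.48-fold lower in RNAi, at 377 ± 83 against 1310 ± 97 normalized counts, and 3.30-fold lower in overexpression, at 397 ± 81 (SD, n = 3). The other, stops, a phototransduction gene 35.1 kb away, was 3.18-fold higher in overexpression and had no entry in RNAi.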

How the data were processed

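Per the labels' protocols, a stranded mRNA kit was used with an input of 250 ng. The submitters' processing notes name DESeq2, bedtools 2.26.0, Subread 1.6.3, Picard 2.18.20 and STAR 2.6.1d with build dm6, without settings. In the deposited tables the authors give, per gene, a signal of read counts scaled by 1 factor per library, a log2 fold change of control over altered genotype (turned around here) and an adjusted p-value. Dividing by each library's smallest step gave whole reads in 100% of nonzero values (tolerance 0.05 reads). The main test was limma 3.58.1 in R 4.3.3 on log2(normalized count + 1) over all listed genes of a comparison; because the authors had selected these genes, its p-values add no independent evidence. On simulated counts for the 710 genes of overexpression, limma called 67% of changes of 2-fold and 98% of those of 4-fold. For the 373 genes of RNAi it called 86% and 99%. The simulation gave all genes the same dispersion, balanced rises and falls, and left 510 and 173 genes unchanged. The real tables hold only selected genes, and the members had CVs of 38.2% to 43.4% in their altered groups. These shares are therefore not the power for the members. Alternatives used edgeR 4.0.16 and DESeq2 1.42.0 on recovered reads, a pseudocount of 5, a minimum mean of 10, TMM scaling, a replicate block and each library left out. Folds are ratios of mean normalized counts, without pseudocount. Gene models came from Ensembl's BDGP6.54 annotation (dm6 coordinates). Named genes were the members, the 5 genes nearest to each among those averaging 20 or more normalized counts, and up to 8 listed genes per list; neighbours within 50 kb, genes of the 3 d class, inaD, atk and wdp were named after their values were seen. The members and lists were chosen with earlier results of these data known. No sequence of the members was used here.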

Additional observations from a re-analysis of the deposited data

How the results depend on the processing

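The falls of eys, prom and chp kept their direction and stayed under an adjusted p of 0.05 in all alternatives with a test. The authors had selected these genes from the same libraries, so this result was largely fixed in advance. It adds no independent evidence for any of the tests used. Adjusted p ranged from 7.97e-06 to 0.00779 for eys, 5.49e-05 to 0.011 for prom and 6.66e-05 to 0.00891 for chp (limma, edgeR and DESeq2). With each library left out in turn, the log2 change ranged from -2.08 to -1.40 for eys, -1.75 to -1.16 for prom and -1.57 to -1.05 for chp. Counts of lower calls then ranged from 194 to 196 in overexpression and stayed at 189 in RNAi, and counts of higher calls ranged from 511 to 514 and stayed at 184. With TMM factors over the listed genes, edgeR called 208 genes higher in overexpression in place of 514. TMM centres the listed genes, most of which rose, so there it could only deepen the falls of eys and prom. Whether replicate numbers pair the libraries is not settled. Same-numbered libraries correlated in their deviations at 0.43, 0.21 and -0.01 for overexpression and 0.33, 0.08 and 0.05 for RNAi. Replicate 1 correlated best with its own number in both comparisons, but not every library did. With the replicate block the log2 changes stayed at -1.84, -1.49 and -1.25 for eys, prom and chp, with limma adjusted p of 0.000501, 0.000769 and 0.00229, and the counts of calls did not move. The SE was 0.28, 0.25 and 0.24 with the block, in place of 0.41, 0.35 and 0.29. No alternative was run for overexpression against RNAi, since no member was listed in both. Reads were ample for all 3 genes; 3 libraries per group and the selection of listed genes limit the comparison.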
